A study of Mus musculus with 2 samples.

Results

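Osteoclasts are the large, multinucleate cells of the monocyte-macrophage lineage that dissolve bone and calcified cartilage, and in a healing fracture they clear the mineralised cartilage of the callus before bone replaces it. They form when precursors that carry the receptors for macrophage colony-stimulating factor (Csf1r) and for RANKL (Tnfrsf11a) switch on the transcription factor Nfatc1 and fuse. The mature cell attaches to the mineral through integrin rings, pumps acid through a ruffled membrane by a proton pump, the V-ATPase, and releases the collagenase cathepsin K (Ctsk) and the gelatinase Mmp9 into the sealed space. This report describes the osteoclasts captured in 2 scRNA-seq libraries of fracture callus, MGJ and MGJ2.

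The calluses came from wild-type mice with a femoral fracture, which per the methods of the study were 12-week-old male C57BL/6J animals. The mid-femur was broken transversely and held by a needle in the marrow cavity, and calluses were taken at 10 days (n = 5) and at 20 days (n = 5) after fracture. Which library came from which day is not given in the labels, nor can cells be traced to a mouse. The libraries are therefore given side by side as single samples without replicates, no difference between them is read as a difference in time, and no test across samples was possible. The calluses were digested by enzymes and loaded as droplets, so the cells described are those that passed this treatment.

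Osteoclasts were chosen by the measured level of their marker genes. A barcode counted as one, called a member here, when it held at least 20 UMIs of Ctsk plus Acp5 per 10000 UMIs and fewer than 100 UMIs of the cartilage collagen Col2a1 on the same scale, and at least 3 UMIs in all of Ocstamp, Dcstamp, Atp6v0d2 and Calcr (UMI, unique molecular identifier, 1 captured RNA molecule). The last 4 genes are called the fusion genes below, although Calcr encodes the calcitonin receptor and the rule used it only as an osteoclast marker. The rule found 87 members among 13460 barcodes of library MGJ that passed the quality filters, 0.646% (95% Clopper-Pearson interval 0.518 to 0.797%), and 48 among 7806 of library MGJ2, 0.615% (0.454 to 0.814%). In all there were 135 members of 21266 barcodes, and the members of MGJ2 are few. Because measured values chose the members, the values of the genes in the rule are a description of that choice.

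Members were the deeper barcodes of their libraries. The rule asked for 3 fusion UMIs without scaling, which deep barcodes reach more easily, so this depth is in part set by the choice. Their UMI totals had a median of 23451 in MGJ (lowest 4371, highest 55726) and of 36414 in MGJ2 (3227 to 86254), 2194790 and 1817560 UMIs in all. The monocyte-macrophage barcodes used for comparison, which numbered 1933 in MGJ and 1969 in MGJ2, had medians of 7668 and 9327 UMIs. These were barcodes with low Ctsk plus Acp5 and Col2a1, few neutrophil transcripts (S100a8 and S100a9), at least 1 UMI of Csf1r and at least 2 UMIs of Tyrobp plus Fcer1g. Levels of all these genes in them are set by that choice. The whole libraries held 135304426 and 61130834 UMIs in 14295 and 8009 barcodes, and 19 barcode sequences occurred in both, 1 of them in a member of MGJ.

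At the edge of the rule, the lowest members stood at 20.2 UMIs of Ctsk plus Acp5 per 10000 in MGJ and 20.1 in MGJ2, and the highest excluded barcodes with enough fusion UMIs at 19.3 and 17.4. Exactly 3 fusion UMIs were found in 6 members of MGJ and in 0 of MGJ2, and 63 and 42 members had 10 or more. In MGJ, a further 98 barcodes reached the limit for Ctsk plus Acp5 without 3 fusion UMIs, 83 of them with no fusion UMI, against 4 such barcodes in MGJ2. Those 98 barcodes were shallow, with a median of 2272 UMIs, and together they held 11858 UMIs of the macrophage and neutrophil lysozyme Lyz2 per 1000000 UMIs (CPM) and 3060 CPM of the bone collagen Col1a1, against 4371 and 261 CPM in the members. The limit on Col2a1 removed no barcode, and the highest member had 36.5 Col2a1 UMIs per 10000 in MGJ and 1.40 in MGJ2.

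The rule's own genes describe the choice and cannot check the label. Summed over members, Ctsk stood at 7193 CPM in MGJ (95% Poisson interval 7081 to 7306) and at 5262 CPM in MGJ2 (5157 to 5369), and Acp5, the tartrate-resistant acid phosphatase by which osteoclasts are stained, at 4970 and 4147 CPM. All intervals given cover counting error only. Atp6v0d2, the osteoclast form of a V-ATPase subunit that also takes part in fusion, reached 647 and 695 CPM, and the fusion proteins Ocstamp and Dcstamp 128 and 170 CPM and 104 and 92.4 CPM. Calcr gave only 1 UMI in the members of each library. Of osteoclast genes that the rule did not use, Nfatc1 was found in 77 of 87 members of MGJ and 47 of 48 of MGJ2, Slc9b2 in 69 and 42, Mmp9 in 61 and 38, Itgb3 in 22 and 19 and Oscar in 21 and 10.

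The members were rare but held much of the RNA of some osteoclast genes. In MGJ2 they held 93.0% of all Ctsk UMIs, 78.4% of Acp5 and 89.9% of Atp6v0d2, and in MGJ 48.5%, 57.9% and 67.6%. These genes chose the members, so their shares are part of the choice. Ocstamp, also in the rule, was at 45.8% in MGJ and 44.8% in MGJ2. For genes outside the rule, the members held 82.4% of Slc9b2 UMIs in MGJ and 90.1% in MGJ2, 93.9% and 89.7% of Oscar, and 40.1% and 55.6% of Ckb. Their shares were smaller for Src (8.03% and 33.9%), Tnfrsf11a (17.0% and 27.8%), Car2 (10.7% and 6.01%), Itgb3 (6.42% and 6.58%) and Nfatc1 (4.12% and 12.8%). For Mmp9 the shares were 47.6% and 36.8%, and neutrophil reference barcodes carried it at 139 and 289 CPM. Outside the members, Ctsk stood at 128 CPM in MGJ and 12.3 CPM in MGJ2, and it was also found in barcodes rich in type I collagen, at 364 and 175 CPM. Neutrophil reference barcodes, which should lack Ctsk, held 35.7 CPM in MGJ and 3.65 CPM in MGJ2, a measure of the free RNA in each library.

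**Figure D1:**
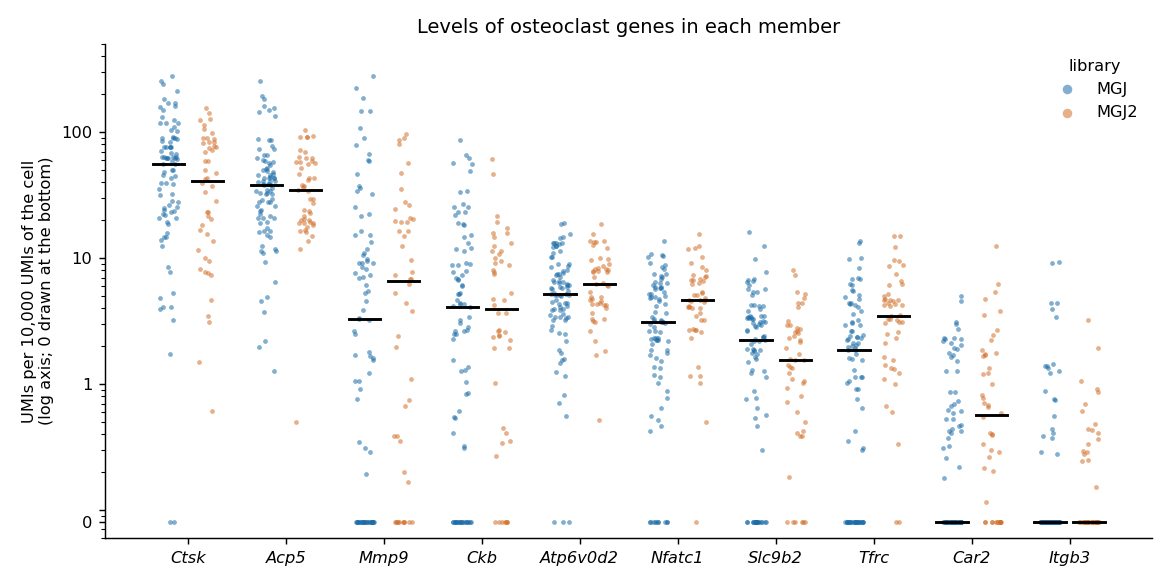
Each point is 1 member, with its UMIs of a gene per 10000 UMIs on a log axis, blue for MGJ (87 members) and orange for MGJ2 (48 members), members with no UMI are drawn at the bottom, and black lines are medians. Ctsk and Acp5 were part of the rule and are high by choice, while Mmp9, Ckb and Itgb3 range from no UMI to 279, 85.8 and 9.30 per 10000 in MGJ.

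Cell by cell, Ctsk ranged from 0 to 276 UMIs per 10000 around a median of 56.1 in MGJ, and from 0.606 to 155 around 41.0 in MGJ2. Acp5 was found in every member, from 1.28 to 253 (median 38.2) and from 0.502 to 103 (median 34.6). The strip plot of levels in each member also shows genes outside the rule. Mmp9 ranged from 0 to 279 (median 3.29) in MGJ, where 26 of 87 members had no UMI of it, and from 0 to 95.8 (median 6.52) in MGJ2, where 10 of 48 had none. Itgb3, the integrin subunit by which osteoclasts grip bone, had no UMI in 65 and 29 members, and Oscar, a collagen-binding receptor that costimulates osteoclast formation, in 66 and 38. Nfatc1, the master transcription factor of osteoclasts, lacked a UMI in only 10 and 1 members, with medians of 3.09 and 4.64. Among these genes outside the rule, Nfatc1 was found in most members, and Itgb3 and Oscar in a minority.

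Levels in the members were then compared with the monocyte-macrophage barcodes of the same library, cells of the lineage from which osteoclasts arise. A gene was counted as higher or lower when the ratio of its CPM was at least 2 or at most 0.5, among genes with at least 50 UMIs in both sets together. By this rule 1556 of 10146 genes (15.3%) were higher and 1961 (19.3%) lower in the members of MGJ, and 2129 of 9886 (21.5%) higher and 2389 (24.2%) lower in those of MGJ2, with median ratios of 1.02 and 1.0045. Scaling without mitochondrial, ribosomal protein and haemoglobin genes moved the split in MGJ to 2040 higher and 1680 lower, and in MGJ2 to 2601 and 2077, as it raised the median ratio of all genes to 1.15 and 1.16. Of the 9304 genes that passed the filter in both libraries, 1129 were higher in both, 1305 lower in both and 22 higher in 1 and lower in the other. The rule chose the members by genes of this contrast, so these counts are a description and the shares over all genes are the background for the lists below.

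**Figure D2:**
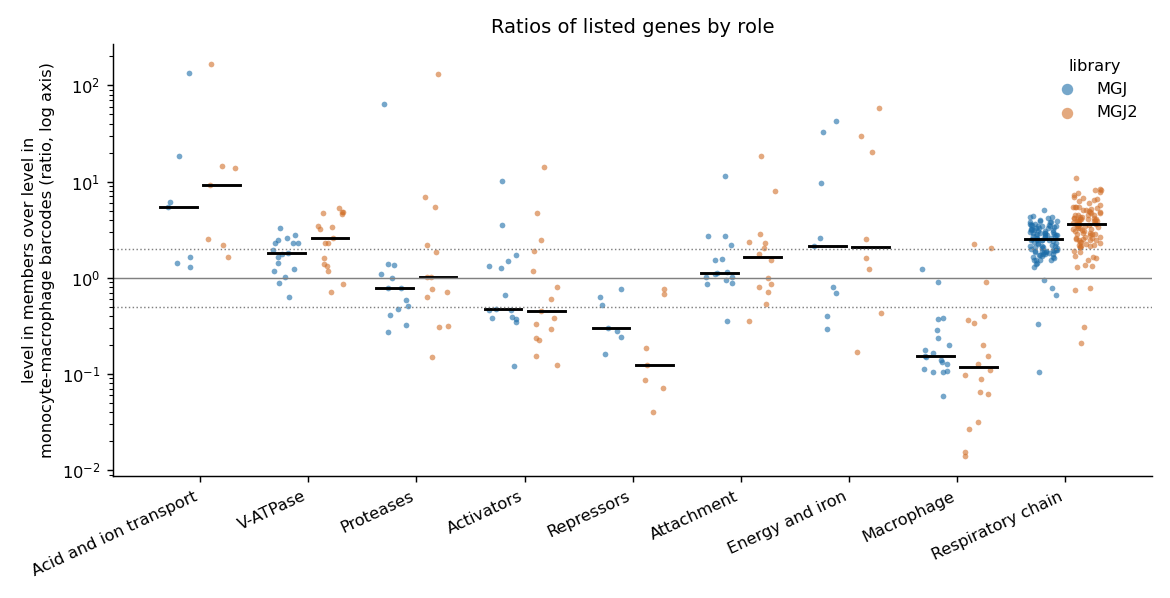
Each point is the ratio of a gene's level in members to its level in monocyte-macrophage barcodes of the same library (log axis), for listed genes that passed the UMI filter, blue for MGJ and orange for MGJ2, with medians as black lines and dotted lines at ratios of 2 and 0.5. Respiratory chain, V-ATPase and acid transport genes lie mostly above 1, and macrophage genes and repressors mostly below it, and genes at 0 in the members are not drawn.

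The 15 genes with the highest ratios across both libraries included 4 of the resorption apparatus, Ctsk, Mmp9, Atp6v0d2 and Slc9b2. Ctsk and Atp6v0d2 chose the members, and the comparison barcodes were chosen for low Ctsk plus Acp5. The ratios of Ctsk and Atp6v0d2 are therefore part of the choice and no finding. Slc9b2 encodes a sodium-proton exchanger of osteoclasts and stood at 273 CPM (251 to 296) in MGJ and 225 CPM (204 to 248) in MGJ2 against 2.01 and 1.34 CPM in monocyte-macrophage barcodes, a ratio of 136 (97.4 to 195) and 168 (114 to 258). The size of such ratios depended on the comparison, and against the 42 deepest monocyte-macrophage barcodes of MGJ2 they were 24.0 for Slc9b2, 18.9 for Akap6 and 129 for Ctsk. Bdh2, the neighbour of Slc9b2 and an enzyme of the short-chain dehydrogenase family, was also in this group, at ratios of 35.1 and 85.5. In GENCODE M21 on GRCm38 both lie on the plus strand of chromosome 3, Bdh2 at chr3:135281221-135304426 and Slc9b2 at chr3:135307700-135345387, with 3273 bases and no annotated gene between them.

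The other genes of this group were less familiar. Rufy4, which binds Rab7 in endosome and lysosome traffic, gave ratios of 298 (79.5 to 2507) and 94.3 (45.3 to 227) at only 32.3 and 37.4 CPM. Akap6, a scaffold for protein kinase A at the nuclear envelope, gave 74.1 and 211, Plxna4, a semaphorin receptor, 26.6 and 283, and the phosphatase gene Dusp9 22.3 and 43.7. Ckb (brain-type creatine kinase) gave 32.9 and 29.9, and Ppargc1b, a coactivator of mitochondrial biogenesis, 43.0 and 57.7. Cyp2s1 (55.6 and 85.5), Kbtbd11 (49.1 and 61.7) and Nudt22 (32.8 and 56.7) completed the genes found in many members. The highest ratio of all belonged to the metallothionein Mt3, 425 and 499, but it was found in only 17 and 12 members, and 1 member held 28.2% of its UMIs in MGJ and 51.7% in MGJ2.

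Promoter sequence is shown for 4 genes, the protease and the phosphatase that chose the members and 2 of the less familiar genes with high ratios. All 4 hold a match of a searched motif, whereas the windows of Calcr, Mt3, Slc9b2, Cyp2s1, Nudt22 and Ckb hold none. For Acp5 the window with a match is shown. The table of RefSeq promoters (GRCm38.p6) held windows for 11 of the 19 genes looked up, the rule genes without Col2a1 and the 15 just described. Each line gives the last 150 bases before a transcription start, read 5′ to 3′ on the gene's strand, with matches of the searched motifs on either strand in capitals.
Ctsk, chr3:95499060-95499209, plus strand: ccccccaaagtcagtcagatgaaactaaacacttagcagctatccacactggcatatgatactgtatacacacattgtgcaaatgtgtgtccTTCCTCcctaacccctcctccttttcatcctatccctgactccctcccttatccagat
Acp5, chr9:22130599-22130748, minus strand: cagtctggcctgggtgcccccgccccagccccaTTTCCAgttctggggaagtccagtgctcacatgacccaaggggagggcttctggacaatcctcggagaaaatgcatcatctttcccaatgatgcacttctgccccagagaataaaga
Rufy4, chr1:74125391-74125540, plus strand: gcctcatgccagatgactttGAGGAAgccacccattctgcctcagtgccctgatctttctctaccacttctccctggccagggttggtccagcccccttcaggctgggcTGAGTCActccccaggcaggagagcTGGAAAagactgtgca
Akap6, chr12:52699233-52699382, plus strand: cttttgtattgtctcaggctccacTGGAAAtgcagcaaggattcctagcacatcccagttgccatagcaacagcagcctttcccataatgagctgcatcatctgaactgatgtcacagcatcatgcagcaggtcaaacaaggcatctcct

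The motifs of 4 factors known from osteoclasts were searched on both strands of the 250 bases before each start. TGGAAA, the core bound by NFAT proteins, occurred in 4 of the 11 genes (Acp5, Rufy4, Akap6 and Bdh2) and in 20.9% of all 27025 genes in the table. GAGGAA, a core bound by Spi1 (PU.1), occurred in 2 (Ctsk and Rufy4) and in 25.9% of all genes. TGANTCA, bound by AP-1, occurred in 1 (Rufy4) and in 7.82%, and CACGTG, an E-box bound by Mitf, in 0 and in 6.86%. Acp5 has several starts and only the window of 1 of them held a match. The matches are letters in a window and say nothing of binding.

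Of the 17 V-ATPase genes that passed the filter, out of 18, 7 were higher in the members of MGJ (background 15.3%) and 11 in those of MGJ2 (background 21.5%), and 0 were lower in either, with median ratios of 1.80 and 2.57. The same 7 were higher in both libraries. Among them, the peripheral subunit gene Atp6v1g1 had ratios of 3.28 (3.16 to 3.42) and 5.31 (5.04 to 5.59), the catalytic Atp6v1a 2.56 and 4.87, and Atp6v0c, which forms the membrane ring, 2.30 and 3.23 at 4317 and 3587 CPM. Tcirg1, the membrane subunit of the osteoclast ruffled border, stood at 400 and 517 CPM, ratios of 1.94 (1.80 to 2.09) and 4.66 (4.32 to 5.03). Atp6v0d1, the widely expressed counterpart of Atp6v0d2, was not in excess, at ratios of 0.889 and 0.863. Against monocyte-macrophage barcodes at least as deep as the lower quartile of the members, the V-ATPase medians were 2.47 and 3.55. In MGJ2 these deep barcodes were only 42 and held 2883 CPM of the progenitor gene Mpo, so they differed in more than depth.

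Genes that supply acid and balance charge behaved likewise. Of 7 genes, 4 were higher in MGJ (background 15.3%) and 6 in MGJ2 (background 21.5%). The 4 were higher in both, and the medians were 5.41 and 9.20. Car2, the carbonic anhydrase that makes protons for the pump, stood at 67.4 and 119 CPM with ratios of 18.3 (13.6 to 24.7) and 13.8 (11.3 to 17.0), although 45 of 87 and 13 of 48 members had no UMI of it. Slc4a2, which exchanges bicarbonate for chloride on the opposite side of the cell, had ratios of 5.41 and 9.20, and the lysosomal sugar-phosphate transporter Slc37a2 6.19 and 14.4. Clcn7, the chloride-proton exchanger that runs with the pump, had 1.44 and 2.20, and its partner Ostm1 1.31 and 1.66.

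Genes of lysosome traffic did not follow as a group, with 2 of 9 higher and 2 lower in MGJ and 0 of 8 higher and 2 lower in MGJ2. The background was 15.3% higher and 19.3% lower in MGJ and 21.5% and 24.2% in MGJ2. Snx10, a sorting nexin needed for the ruffled border, had ratios of 3.33 and 1.005. Rab38 had 37.4 in MGJ from 49 UMIs, and its 19 UMIs in MGJ2 did not pass the filter. The lysosomal membrane proteins Lamp1 and Lamp2 were lower in both libraries, at 0.297 and 0.179 and at 0.254 and 0.132. Members therefore held more V-ATPase RNA but less RNA of these lysosomal membrane proteins than monocyte-macrophage barcodes.

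Among 13 protease genes and inhibitors beside Ctsk, 1 was higher and 4 lower in MGJ and 4 were higher and 3 lower in MGJ2. Over all genes, 15.3% were higher and 19.3% lower in MGJ, and 21.5% and 24.2% in MGJ2. Mmp9 stood apart at 2107 CPM (2047 to 2168) and 1629 CPM (1570 to 1688), ratios of 63.4 and 132. Ctss and Lgmn, lysosomal proteases of antigen-presenting cells, were lower in both, at 0.321 and 0.310 and at 0.276 and 0.152. Mmp14, the membrane-bound collagenase, had similar levels in the members of both libraries, 272 and 254 CPM, but ratios of 1.10 and 6.94, because monocyte-macrophage barcodes held 248 CPM in MGJ and 36.5 CPM in MGJ2. Mmp12 went opposite ways, 0.416 in MGJ and 5.42 in MGJ2, and in MGJ2 1 member held 99.3% of its UMIs. The collagenase Mmp13 was scarce in members, 67.4 and 5.50 CPM, and stood at 1439 and 3938 CPM in the 1498 and 36 barcodes rich in type I collagen, where Mmp9 was at 16.7 and 66.3 CPM. Members were thus rich in Mmp9 RNA and poor in Mmp13 RNA, and the barcodes rich in type I collagen the reverse.

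The receptor for RANKL, Tnfrsf11a, stood at 71.5 CPM in MGJ (60.8 to 83.6) and 76.5 CPM in MGJ2 (64.3 to 90.3), with ratios of 2.25 and 4.93. Csf1r stood at 294 and 330 CPM, ratios of 0.990 and 0.863, but the comparison barcodes were chosen for having Csf1r. The inflammatory receptors Tnfrsf1b and Il1r1 were lower in both libraries, at 0.154 and 0.0802 and at 0.440 and 0.350. Of the ligands, Csf1 stood at 22.3 and 11.0 CPM in members, against 25.5 and 22.0 CPM in monocyte-macrophage barcodes and 58.2 and 66.3 CPM in barcodes rich in type I collagen, and Il34 gave 4 and 1 UMIs in members. RANKL itself (Tnfsf11) gave 10 UMIs in the members of MGJ, 7 of them in 1 member, and 0 in those of MGJ2, which allows up to 3 counts in 1817560 UMIs, and stood at 148 and 39.0 CPM in barcodes rich in type I collagen. Its decoy osteoprotegerin (Tnfrsf11b) gave 3 and 0 UMIs in members and 200 and 419 CPM in barcodes rich in Col2a1, of which MGJ2 had only 125.

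Receptors that signal through ITAM adaptors, which costimulate RANK, were mixed. Oscar stood at 49.2 CPM in MGJ and 14.3 CPM in MGJ2 against 1 UMI in the monocyte-macrophage barcodes of each, a ratio of 906 (159 to 36108) in MGJ, while the 26 UMIs in the members of MGJ2 were too few for the filter. Trem2 had ratios of 0.909 and 2.24 and was found in 65 and 28 members. Siglec15, another receptor of this kind, gave 1 and 2 UMIs. The adaptor genes Tyrobp and Fcer1g stood at 1603 and 1474 CPM and at 937 and 620 CPM, and they too were used to choose the comparison barcodes.

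Of 15 transcription factors that drive osteoclast formation, 2 were higher and 8 lower in MGJ and 3 higher and 8 lower in MGJ2. The background was 15.3% higher and 19.3% lower in MGJ and 21.5% and 24.2% in MGJ2. The list as a whole did not stand above monocyte-macrophage barcodes, with medians of 0.478 and 0.455. Nfatc1 was the exception, at 379 CPM (354 to 406) and 545 CPM (512 to 580), with ratios of 10.0 (9.07 to 11.1) and 14.0 (12.7 to 15.4). The AP-1 family member Jdp2 was the other gene higher in both, at ratios of 3.50 and 2.45. Mitf (1.71 and 1.88) and Spi1 (1.25 and 1.19), which are already on in precursors, lay between the limits. Genes of NF-kappaB that RANKL activates were lower, Nfkb1 at 0.467 and 0.223, Nfkb2 at 0.369 and 0.296 and Relb at 0.380 and 0.236, as were Fosl1 (0.121 and 0.155) and Junb (0.396 and 0.328). Myc was at 0.658 in MGJ and 4.69 in MGJ2.

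Repressors of osteoclast formation were mostly lower too. Of 7 genes, 4 were lower in MGJ (background 19.3%) and 5 in MGJ2 (background 24.2%), 0 were higher, and the medians were 0.300 and 0.124. Those lower in both included Irf8 (0.280 and 0.124), which also directs monocyte and macrophage development, Bcl6 (0.244 and 0.0722) and Rbpj (0.300 and 0.185). Prdm1 (Blimp1), which in osteoclasts silences several of these repressors, was itself low at 19.6 and 15.4 CPM, ratios of 0.465 and 0.124. Id2 (0.633 and 0.671) and Zbtb7a (0.771 and 0.766) were closer to monocyte-macrophage levels.

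Cell fusion and attachment genes outside the rule were mixed too. Sh3pxd2a (Tks5), an adaptor of podosomes needed for fusion, had ratios of 3.49 and 14.1, and Cd109 6.92 and 17.6, the 2 genes of 11 on the fusion list that were higher in both libraries. The tetraspanin Cd9 had 1.41 and 1.29, and Adam8 was lower at 0.279 and 0.456. Of the attachment genes, 4 of 15 were higher in MGJ (background 15.3%) and 6 of 14 in MGJ2 (background 21.5%). Itgb3 stood at 52.4 and 31.9 CPM with ratios of 11.3 and 8.05, the tyrosine kinase Src, needed for the ruffled border, at 63.3 and 91.3 CPM with 2.75 and 18.4, and Dock5, an activator of Rac at podosomes, had 2.20 and 2.04. Itgb5, the partner that Itgb3 replaces as osteoclasts form, was lower, at 0.353 and 0.354. Spp1 (osteopontin) had ratios of 1.15 and 2.36, was at 7255 and 3248 CPM in neutrophil reference barcodes, and changed direction with the comparison, at 0.696 and 0.660 against equally deep barcodes, so no direction is read from it.

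Factors by which osteoclasts are thought to call osteoblasts were counted in the same way. Of the list of 12, 10 and 9 passed the filter. Of these, 0 and 1 were higher (background 15.3% and 21.5%) and 4 and 5 lower (background 19.3% and 24.2%). So few genes cannot set the number higher apart from the background. Pdgfb, which recruits vessels and progenitors, stood at 56.95 and 77.0 CPM, ratios of 1.81 (1.48 to 2.20) and 1.96 (1.62 to 2.34). Complement C3 (0.0774 and 0.0215), Cxcl16 (0.255 and 0.0972) and Tgfb1 (0.252 and 0.0959) were lower in both.

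Nuclear genes of the mitochondrial respiratory chain were widely higher in the members. Of 103 genes that passed the filter in MGJ, 70 were higher and 2 lower (background 15.3% and 19.3%), with a median ratio of 2.53, and of 102 in MGJ2, 88 were higher and 3 lower (background 21.5% and 24.2%), with a median of 3.60. The 70 were higher in both. Summed over the list, members held 45318 CPM in MGJ and 51920 CPM in MGJ2, against 19008 and 16524 CPM in monocyte-macrophage barcodes. All 5 complexes were represented, with Ndufv1 (complex I) at 2.98 and 3.69, Uqcr10 (complex III) at 4.34 and 6.26, Sdhb (complex II) at 3.06 and 4.13, Cox5a (complex IV) at 2.58 and 4.06, and Atp5b, the catalytic subunit of ATP synthase, at 3.11 and 3.85. The 5 genes that were lower in 1 library were tissue-specific or hypoxia-linked forms and an assembly factor, Cox4i2 and Ndufa4l2 in MGJ and Cox6a2, Cox6b2 and Ndufaf7 in MGJ2, all at 6 UMIs or fewer in the members except Ndufaf7. Against equally deep barcodes, in MGJ2 the 42 rich in Mpo, the medians were 2.11 (55 of 99 higher) and 1.94 (43 of 95 higher). The share of UMIs from the mitochondrial genome moved with this list, at medians of 5.05% and 6.45% in members against 3.56% and 2.90% in monocyte-macrophage barcodes. With members and comparison barcodes held to at most 10% mitochondrial UMIs, the list medians were 2.48 (69 of 103 higher) and 3.54 (88 of 102 higher). A cause was not tested.

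Of the genes of energy supply and iron handling, 5 of 9 were higher and 2 lower in MGJ (background 15.3% and 19.3%). In MGJ2, 4 of 8 were higher and 2 lower (background 21.5% and 24.2%), and the medians were 2.12 and 2.07 in MGJ and MGJ2. In MGJ the median was 0.789 (4 higher, 2 lower) when members and comparison barcodes were held to at most 10% mitochondrial UMIs. Ckb, which buffers ATP, stood at 1232 CPM (1186 to 1279) and 886 CPM (843 to 930), and its levels per member ran from 0 to 85.8 and from 0 to 61.6 per 10000 with medians of 4.09 and 3.95. Ppargc1b and its partner Esrra, which together raise mitochondrial genes, were both higher, Esrra at ratios of 2.12 and 2.52. Tfrc, the transferrin receptor that brings in iron for the respiratory chain, stood at 263 and 436 CPM, ratios of 9.76 (8.64 to 11.0) and 20.4 (18.1 to 23.0). Fth1, the ferritin heavy chain that stores iron, was lower at 17018 and 6074 CPM against 57731 and 35840 CPM, ratios of 0.295 and 0.169. The glucose transporter Slc2a1 was lower as well, at 0.402 and 0.430. Against equally deep barcodes, 3 of 9 genes of the list were higher and 2 lower in MGJ, and 5 of 8 higher and 0 lower in MGJ2. Under the alternatives the Fth1 ratio in MGJ2 ran up to 0.687, so a level lower by 2-fold depended on the comparison there.

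Macrophage genes were low in the members. Of 19 that passed the filter in MGJ, 17 were lower (background 19.3%), and of 18 in MGJ2, 15 (background 24.2%). Those 15 were lower in both, and the medians were 0.156 and 0.119. Against equally deep barcodes 14 of 19 and 9 of 15 were lower, with medians of 0.275 and 0.497. In MGJ2 those 42 deep barcodes were rich in the progenitor gene Mpo. Against barcodes low in C1q, 10 of 19 were lower and 2 higher in MGJ, with a median of 0.332. Lyz2 had ratios of 0.379 and 0.0624, the endotoxin coreceptor Cd14 0.132 and 0.0320, the class II invariant chain Cd74 0.237 and 0.201, and Apoe, the lipid carrier the study examined in chondrocytes, 0.201 (0.194 to 0.208) and 0.154 (0.141 to 0.168) at 1666 and 271 CPM. Under the alternatives the Apoe ratio in MGJ ran from 0.0669 to 0.755. Cd68, a lysosomal protein shared by macrophages and osteoclasts, was the exception, at 1.24 and 2.05, and Trem2 also passed 2 in MGJ2. No UMI of C1qa, C1qb or C1qc was found in 55 of 87 members of MGJ and in 42 of 48 of MGJ2, while 8 and 0 members had 20 or more per 10000. At the other end, 17 genes had no UMI in the members of either library, among them Il12a, Clec4b1, Cd209a, Ace and Apoc1, genes known from monocytes, macrophages or dendritic cells. The B cell marker Vpreb3 was among the 17 too, with 87 and 201 UMIs in monocyte-macrophage barcodes. Apoc1 and the others at 0 allow up to 3 counts in each library's members.

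Markers of other cell types gave these values. Neutrophil markers were higher for 4 of 8 genes in MGJ (background 15.3%) and 2 of 9 in MGJ2 (background 21.5%). The comparison barcodes were held below 200 UMIs of S100a8 plus S100a9 per 10000 and the members were not, so the choice raises these ratios. The sum of the markers ran from 0.464 to 459 UMIs per 10000 over members of MGJ (median 2.59) and from 0 to 293 (median 1.96) in MGJ2. The medians in monocyte-macrophage barcodes were 5.27 and 3.73. Retnlg and Ngp lay mostly in 1 member each, with 72.2% and 78.1% of their UMIs in MGJ and 91.7% and 72.0% in MGJ2. Chondrocyte markers were higher for 0 of 9 and 0 of 7 genes, with summed levels of 365 and 27.0 CPM, against 755 and 53.2 CPM in monocyte-macrophage barcodes. Osteoblast (595 and 13.8 CPM), fibroblast (393 and 3.30 CPM), endothelial (9.57 and 9.90 CPM), B cell (9.11 and 9.90 CPM), T and NK cell (3.19 and 9.90 CPM) and erythroid markers (22.3 and 1.10 CPM) were higher for none of the genes that passed the filter, and in MGJ2 0 fibroblast and 0 erythroid markers passed it. Without members carrying neutrophil, B cell or haemoglobin transcripts, and without those carrying C1q, counts of higher and lower genes stayed within 1.5 times. In MGJ2, 1 member held 72.9% of Lyz2, 99.3% of Mmp12 and all 20 UMIs of C1qa.

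Piezo1, the mechanically gated channel studied in this series, was present at 94.3 CPM (81.9 to 108) in members of MGJ and 124 CPM (108 to 141) in those of MGJ2, with ratios of 1.25 (1.07 to 1.45) and 1.65 (1.43 to 1.90). After thinning each cell to 2000 UMIs, Piezo1 was detected in 13.8% of members of MGJ (7.34 to 22.9%) and 20.8% of those of MGJ2 (10.5 to 35.0%), against 14.5% of monocyte-macrophage barcodes in both and 3.61% and 3.25% of neutrophil reference barcodes. Unthinned, the shares of members were 83.9% and 95.8%. By the same measure Nfatc1 was detected in 44.8% and 66.7% of members, 6.16% and 5.99% of monocyte-macrophage barcodes and 4.40% and 6.27% of neutrophil reference barcodes. The Piezo1 share of members was thus above that of neutrophil reference barcodes and not separable from that of monocyte-macrophage barcodes at this depth, and the cell cycle inhibitor Cdkn1a was lower in members, at ratios of 0.209 and 0.0713.

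Members differed among themselves along Ctsk plus Acp5. The 43 members of MGJ above the median of this sum were compared with the other 44, and 24 with 24 in MGJ2. The upper groups had median totals of 25872 and 38613.5 UMIs against 20405 and 33640, and mitochondrial shares of 6.45% and 8.49% against 4.40% and 5.10%. Ctsk and Acp5 define the split, so their ratios, 4.22 and 4.52 and 3.46 and 2.83, are no finding. The other values are descriptions of cells within 1 library, and cells are not replicates.

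The genes with the highest ratios included several of the resorbing cell. Mmp9 was 16.9 times higher (14.8 to 19.4) in the upper group of MGJ and 12.5 times (10.9 to 14.5) in that of MGJ2, Itgb3 48.5 times (13.1 to 405) and 5.97 times (2.81 to 14.6), and Ckb 7.92 and 6.70 times. Arsb, a lysosomal sulfatase that degrades cartilage glycosaminoglycans, gave 20.5 (12.6 to 35.5) and 8.19 (6.05 to 11.3), and Ank, which exports pyrophosphate and so bears on mineral, 4.45 and 4.36. The thrombin receptor F2r (8.06 and 9.94), the endosomal protein Pheta1 (8.72 and 4.66), the adenylate cyclase Adcy3 (5.19 and 4.05) and Mt3 (49.9 and 171) were the remaining genes with the highest ratios. Without the member that held most of a gene's UMIs, each of these was at 3.73 or more, an alternative chosen after seeing the data. Car2 (3.68 and 4.10), Dcstamp, a gene of the rule (3.93 and 5.22), Slc9b2 (3.06 and 1.92) and Snx10 (2.42 and 4.24) went the same way, and Nfatc1 differed little, 1.58 and 1.14.

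**Figure D3:**
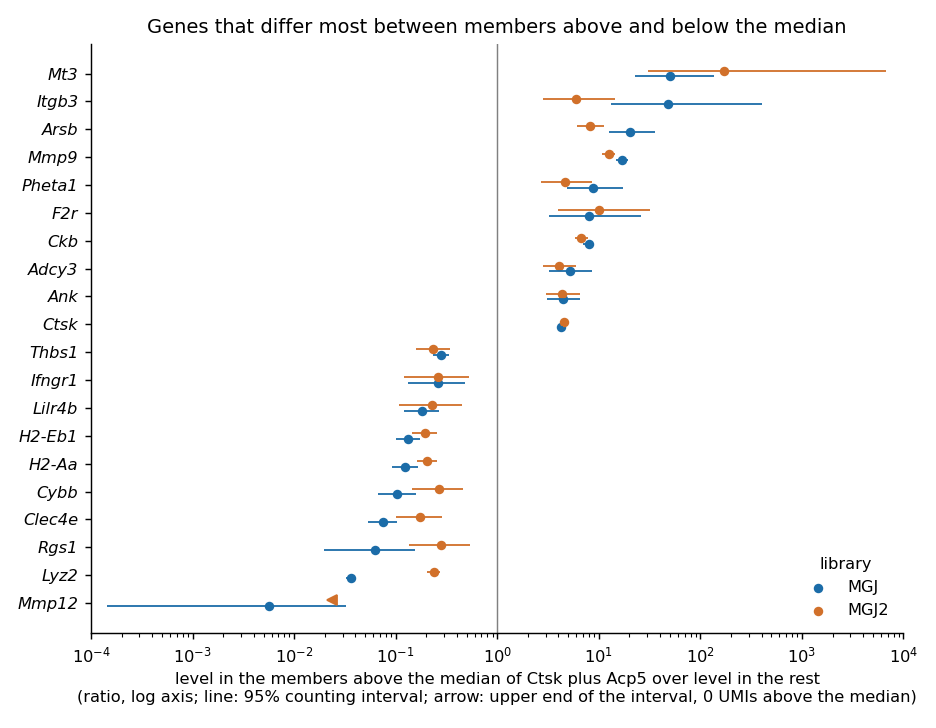
Each point is the ratio of a gene's level in members above the median of Ctsk plus Acp5 to its level in the rest (log axis), blue for MGJ and orange for MGJ2, lines are 95% counting intervals, and the arrow marks the upper end of the interval where the group above the median had no UMI. The 10 genes with the highest ratios lie between 4.05 and 171, and the 10 with the lowest between 0 and 0.280.

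Genes of the macrophage side went the other way, as the plot of ratios between the groups shows. H2-Aa and H2-Eb1, which present antigen, stood at 0.124 and 0.205 and at 0.133 and 0.193, the oxidase subunit Cybb at 0.104 and 0.266, the lectin Clec4e at 0.0750 and 0.173, Lilr4b at 0.183 and 0.229, Ifngr1 at 0.261 and 0.263 and Thbs1 at 0.278 and 0.236. Lyz2 was at 0.0361 in MGJ and 0.238 in MGJ2, but without the member that held most of it the MGJ2 ratio was 2.60 (2.02 to 3.38), so a lower level holds for MGJ only. Mmp12 (0.00572 and 0) and Rgs1 (0.0631 and 0.280) were also low, and without that member Rgs1 was 0.938 in MGJ2 and Mmp12 had 1 UMI left. Apoe and Spp1 went opposite ways, 0.164 and 3.37 and 0.159 and 2.77. The lower group of MGJ was mixed. Its highest Lyz2 levels were 842, 559, 507 and 472 UMIs per 10000, against at most 32.0 in the upper group. Those members had no Slc9b2 UMI and Nfatc1 of 0, 0.426, 0 and 0 per 10000. Others of the lower group had no Lyz2 UMI and Nfatc1 from 1.13 to 9.18. The MGJ ratios include the members high in Lyz2, and whether these are osteoclasts was not tested.

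By list, 14 of 15 and 15 of 15 V-ATPase genes were above 1 in the upper group, with medians of 1.53 and 1.74, against medians of all genes of 0.937 and 0.952. Respiratory chain genes were above 1 for 83 of 90 and 72 of 88, with medians of 1.35 and 1.20. Acid and ion transport genes were above 1 for 6 of 7 and 7 of 7 (medians 1.63 and 1.86). Other osteoclast lists were mixed in MGJ, with attachment genes above 1 for 6 of 12 and 10 of 12 (0.991 and 1.29), proteases for 6 of 13 and 9 of 12 (0.635 and 1.42) and fusion genes outside the rule for 2 of 8 and 3 of 8 (0.844 and 0.873). Macrophage genes had medians of 0.132 and 0.313. Cell cycle genes were below 1 for 13 of 14 and 8 of 8 (medians 0.689 and 0.153). In MGJ the upper group also carried more osteoblast (median 9.27, 3 genes), fibroblast (4.70, 4 genes) and neutrophil markers (6.52, 6 genes), whereas in MGJ2 the neutrophil median was 0.134 (5 genes) and the others had too few UMIs, and the part of these transcripts in the differences was not tested. Without carriers of neutrophil, B cell or haemoglobin transcripts, none of the 24 genes followed (the 20 plotted, Dcstamp, Ocstamp, Car2 and Snx10) changed side.

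A UMI of the 16 cell cycle genes was found in 80 of 87 members of MGJ and 44 of 48 of MGJ2, and many such UMIs in few members. Osteoclasts are held to be post-mitotic, while their precursors divide. Of these genes, 13 were higher in MGJ (background 15.3%) and 6 in MGJ2 (background 21.5%) than in monocyte-macrophage barcodes, medians of 2.93 and 1.65. Against barcodes at least as deep as the lower quartile of the members (165 and 42), 0 were higher in either library, the medians were 1.05 and 0.368, and 14 of 15 were lower in MGJ2, where those deep barcodes held 2883 CPM of the progenitor gene Mpo. The excess over monocyte-macrophage barcodes therefore moved with depth and with the choice of comparison.

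**Figure D4:**
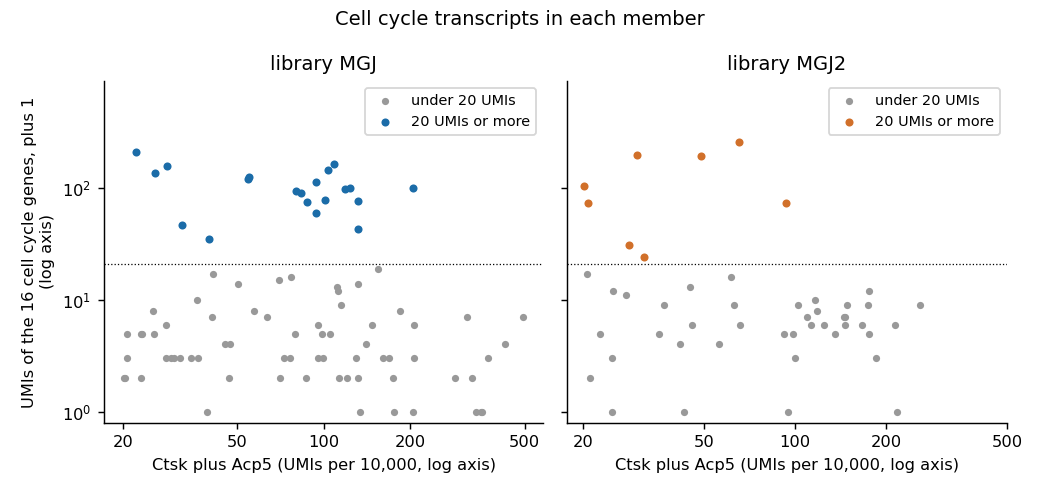
Each point is 1 member, with Ctsk plus Acp5 per 10000 UMIs on the horizontal axis and UMIs of the 16 cell cycle genes plus 1 on the vertical axis (both log), MGJ at left and MGJ2 at right, and the dotted line marks 20 UMIs. Coloured points are the 20 members of MGJ and 8 of MGJ2 at or above that line, and in MGJ no member lies between 18 and 34 UMIs, whereas in MGJ2 2 of the 8 lie at 23 and 30 and the rest at 72 or more.

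At least 3 UMIs of this list were found in most members, 52 of 87 and 40 of 48, so a split at 20 UMIs, chosen after seeing the data, is given. It set apart 20 members of MGJ and 8 of MGJ2, as the plot of cell cycle transcripts shows, with median totals of 34648 and 48258.5 UMIs against 20614 and 34856 in the rest. Most gene lists were lower in them. Mmp9 was at 0.198 (0.179 to 0.219) and 0.120 (0.0972 to 0.147) of its level in the rest, Itgb3 at 0.108 and 0.0609 and Ckb at 0.483 and 0.184. Of the genes of the rule, Dcstamp was at 0.440 and 0.106 and Ctsk at 0.647 and 0.412. Deeper members can reach the rule's 3 fusion UMIs at lower levels of the fusion genes. Of 15 V-ATPase genes, 14 and 15 were below 1, with medians of 0.779 and 0.596. Proteases were below 1 for 13 of 13 and 11 of 12 (0.530 and 0.570), ITAM receptors for 7 of 8 and 5 of 6 (0.480 and 0.651) and macrophage genes for 13 of 13 and 6 of 9 (0.480 and 0.662), against medians of all genes of 1.08 and 1.02. Nfatc1 was not lower, at 1.32 (1.15 to 1.52) and 1.06 (0.911 to 1.23), and respiratory chain genes had medians of 1.002 and 0.889. Tfrc was at 1.95 in MGJ and 0.877 in MGJ2. In both libraries, then, members with at least 20 cell cycle UMIs had Nfatc1 RNA and less Mmp9 RNA than the rest. The Itgb3 ratios rest on few UMIs, with 115 and 58 in all members together.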

How the data were processed

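Single cells of callus from wild-type mice were captured on the 10x Chromium 3′ v3 platform in 2 libraries. Per the file headers the authors made the deposited matrices with Cell Ranger 4.0.0, and the submitters' processing notes name GRCm38. The values are raw UMI counts per gene and barcode for 32285 genes, filtered to cells by the authors and not normalized, and the Seurat steps named by the authors are not part of them.

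Here, barcodes with under 200 genes or over 20% mitochondrial UMIs were removed (835 in MGJ and 203 in MGJ2). Counts were summed over each set of barcodes and given as CPM with exact Poisson intervals, ratios within a library with exact conditional binomial intervals, and shares with Clopper-Pearson intervals, all at 95%. PCR and pooling errors are outside these intervals. Genes needed 50 UMIs in both sets together, a fold of 2 counted as higher, and a count of 0 was bounded with 3 counts. Named genes were the 15 highest and 10 lowest by their ratios in both libraries, the 10 highest and 10 lowest between members above and below the median of Ctsk plus Acp5, and members of the lists. The members and lists were chosen with earlier results of these data known. Scrublet (scanpy 1.11.5) called 0 of 13460 barcodes in MGJ, where it has not worked, and 223 of 7806 in MGJ2, and 0 members in either, so doublets were not removed. Sums and intervals were computed in Python 3.11.15 (scipy 1.17.1 for the intervals), and the ratio was tested on simulated data. The values of 1 listed gene are not reported here.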

Additional observations from a re-analysis of the deposited data

Results flagged for a closer look

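Barcodes outside the main measurement held osteoclast transcripts. In MGJ, 2 barcodes removed for their mitochondrial share (27.8 and 32.0%) met the expression part of the rule and held 10 UMIs of Ocstamp, Dcstamp, Atp6v0d2 and Calcr together. In MGJ2, 5 such barcodes (20.5 to 82.7%) held 67. They were flagged because these data entered no comparison.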

How the results depend on the processing

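Under the alternatives, which varied the limits of the rule, removed carriers of other transcripts or doublet calls, and changed the comparison, scaling and UMI filter, members numbered 64 to 108 in MGJ and 34 to 54 in MGJ2. Against comparison barcodes at least as deep as the lower quartile of the members, 586 genes were higher in MGJ, and 682 higher and 1184 lower in MGJ2, where only 42 such barcodes, rich in Mpo, were left. With a filter of 200 UMIs the counts were 876 higher and 1282 lower in MGJ and 1203 higher in MGJ2, and with no filter 3016 and 6727 in MGJ and 4060 and 6862 in MGJ2, since fewer or more genes are then tested.

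Of 1256 ratios of 36 genes under the alternatives, 974 lay within the counting interval of the main value, 270 outside it on the same side of 1 or from an interval that held 1, and 12 crossed 1 from an interval that did not. Slc9b2 in MGJ2 ran from 24.0 to 380, Akap6 from 18.9 to 875 and Ctsk from 129 to 935. Ratios whose interval held 1 also crossed it, Csf1r in MGJ (up to 1.80) and, in MGJ2, Snx10 (0.815 to 2.55), Mki67 (0.356 to 1.22) and Top2a (0.254 to 2.22). Of the 12, Spp1 in MGJ was at 0.531 with at least 40 UMIs of Ctsk plus Acp5, 0.959 with at least 5 fusion UMIs, 0.948 with 3 fusion UMIs per 10000, 0.662 without C1q carriers (chosen after seeing the data), 0.696 against the deep barcodes and 0.951 against C1q-high ones, and in MGJ2 at 0.660 against the deep barcodes. Mmp14 in MGJ was at 0.922 with at most 10% mitochondrial UMIs and 0.904 against C1q-high barcodes. Against the deep barcodes Mki67 was at 0.814 and Top2a at 0.992 in MGJ, and Csf1r at 2.63 in MGJ2. Between members above and below the median of Ctsk plus Acp5, Lyz2 in MGJ2 was at 2.60 without the member that held most of it. The cause was not tested. Oscar gave no ratio against barcodes without any UMI of it, nor did Akap6 in MGJ2 with the limit at 10, and C1q-high barcodes were too few in MGJ2 (18). No paired analysis was possible because the labels give no groups. Calcr and Siglec15 rest on 1 or 2 UMIs, which limits their precision.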
